A study of Rattus norvegicus with 58 samples.

Results

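Liver RNA of heterogeneous stock (HS) rats, an outbred colony, was compared between the 12 arrays with the highest and the 12 with the lowest level of the Cd36 transcript. These 24 arrays were chosen by their Cd36 level, by ranking 46 HS arrays on 1 probe set, and 22 arrays lay between the ends. The study measured 58 male rats on Affymetrix arrays, 1 array per rat, 46 of them HS rats and 12 inbred (2 arrays each of M520, ACI, F344, BUF, WKY and BN). The labels name no transgene and no drug; HS and inbred rats alike were 17 weeks old, shared cages as pairs and were fasted overnight before liver collection. The labels call 23 HS rats glucose-intolerant and the other 23 normal in glucose tolerance. The high-Cd36 end held 8 glucose-intolerant and 4 normal rats, and the low-Cd36 end held 5 glucose-intolerant and 7 normal rats. The middle 22 were 10 intolerant and 12 normal rats. All levels are log2 values, and a difference is that of the high-Cd36 end minus the low-Cd36 end.

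CD36 is a membrane glycoprotein that binds long-chain fatty acids and oxidised lipoproteins and helps fatty acids enter the cell. Inside the cell, acyl-CoA synthetases activate the fatty acids, which are then oxidised in mitochondria and peroxisomes or stored as triglyceride. In liver the protein is found on hepatocytes, endothelial cells and Kupffer cells, and in rats it is more abundant in the livers of females than of males. In bulk tissue, fewer cells of a type and less RNA per cell cannot be told apart.

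The sequences before the starts of Cd36, of Prlr and of Plaat3 are shown because Cd36 ranked the livers and the other 2 genes gave the smallest p-values among genes when the second Cd36 probe set ranked the arrays. They are the 250 bases before each RefSeq start on GRCr8, read 5′ to 3′ on the plus strand, and Prlr has 2 listed starts. Capitals mark matches on either strand to AGGTCA, a nuclear receptor motif, or to TTCNNNGAA, a STAT motif.
Cd36, chr4:18246332-18246581: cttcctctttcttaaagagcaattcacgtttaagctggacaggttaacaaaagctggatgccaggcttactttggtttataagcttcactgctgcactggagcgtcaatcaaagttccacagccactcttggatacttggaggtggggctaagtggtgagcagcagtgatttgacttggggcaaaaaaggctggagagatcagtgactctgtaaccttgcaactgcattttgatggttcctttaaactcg
Prlr, chr2:60861515-60861764: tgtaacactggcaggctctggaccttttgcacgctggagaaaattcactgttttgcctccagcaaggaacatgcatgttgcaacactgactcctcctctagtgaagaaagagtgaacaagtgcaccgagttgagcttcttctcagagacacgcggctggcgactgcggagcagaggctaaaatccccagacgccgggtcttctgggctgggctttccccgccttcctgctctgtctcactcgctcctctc
Prlr, chr2:60909409-60909658: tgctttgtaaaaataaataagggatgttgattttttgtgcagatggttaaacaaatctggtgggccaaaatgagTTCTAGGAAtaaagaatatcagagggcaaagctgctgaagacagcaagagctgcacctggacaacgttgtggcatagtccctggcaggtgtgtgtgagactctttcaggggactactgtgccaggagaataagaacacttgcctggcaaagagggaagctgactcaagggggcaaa
Plaat3, chr1:214211629-214211878: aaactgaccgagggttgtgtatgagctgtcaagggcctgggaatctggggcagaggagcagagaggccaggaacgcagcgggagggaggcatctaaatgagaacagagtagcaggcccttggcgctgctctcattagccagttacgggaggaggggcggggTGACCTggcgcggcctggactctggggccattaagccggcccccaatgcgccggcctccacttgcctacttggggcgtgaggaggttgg
Of 33469 promoter windows of 250 bases, 14.1% held AGGTCA, 7.67% held TTCNNNGAA and 0.0508% held DR1, a direct repeat of AGGTCA. The Plaat3 window held AGGTCA once, 89 bases before the start, and the second Prlr window held TTCNNNGAA once, 176 bases before its start. None of these letters occurred in the Cd36 window or in the other Prlr window.

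Cd36 itself is described without a test, since it chose the arrays. Its level ran from 8.86 to 9.80 with a median of 9.37 in the high end, against 5.40 to 7.44 with a median of 6.83 in the low end. The means were 9.34 ± 0.33 in the high end and 6.64 ± 0.67 in the low end (SD, n = 12 each), a difference of 2.70 or 6.48-fold. The 22 middle arrays lay between 7.44 and 8.79. The cuts fell in a continuous range: the last array inside the high end was at 8.86 and the next outside at 8.79, and the last inside the low end and the next outside both rounded to 7.44. A second probe set, which the annotation gives both Cd36 and the related Cd36l1, averaged 10.51 ± 0.32 in the high end and 8.90 ± 0.56 in the low end (SD, n = 12 each), a difference of 1.60 or 3.04-fold. On it the same 24 arrays did not overlap between the ends: the lowest high-end value was 9.84 and the highest low-end value 9.78.

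**Figure D1:**
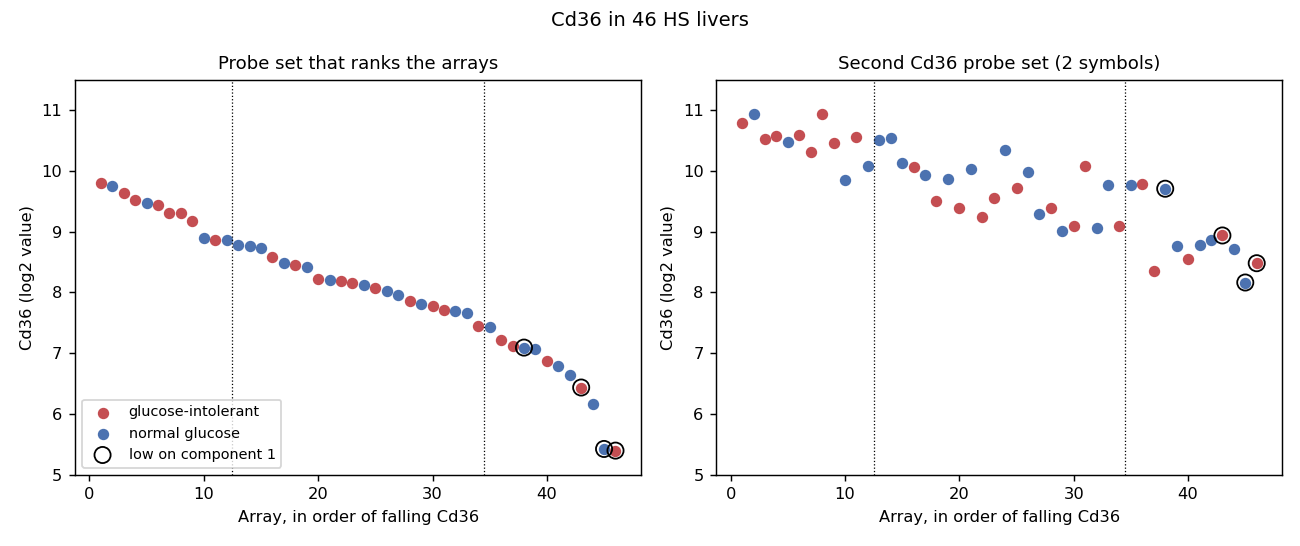
Cd36 (log2 value) in the 46 HS livers, ordered on the horizontal axis by falling Cd36 on the ranking probe set, with that probe set on the left and the second one on the right; colour gives the glucose label, dotted lines bound the ends of 12, and circles mark 4 arrays that lie lowest on the first principal component. On the ranking probe set the high end spans 8.86 to 9.80 and the low end 5.40 to 7.44, and both glucose labels occur in each end.

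No difference in glucose label between the ends was detected. Intolerant rats made up 8 of 12 arrays in the high end and 5 of 12 in the low end (odds ratio 2.68, Fisher's exact test, two-sided, p = 0.414). Over all HS rats the Cd36 level was 8.20 ± 1.13 in the intolerant animals, against 7.92 ± 1.05 in the normal ones (SD, n = 23 each), and limma put the difference at 0.28 ± 0.31 (SE, adjusted p = 0.848). Ranking by the second probe set kept 9 of 12 arrays at each end, and gave 7 intolerant and 5 normal rats in the high end, against 5 intolerant and 7 normal rats in the low end.

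Among the inbred livers Cd36 was highest in M520 and ACI. M520 had 7.85 and 7.86, and ACI had 7.76 and 7.36. F344 had 7.73 and 5.83 and BUF had 6.62 and 5.53, so arrays of 1 strain differed by over 1 in both. WKY had 6.42 and 6.46, and BN had 6.22 and 6.30. The moderated F test over strains gave an adjusted p = 0.0851 for the ranking probe set and an adjusted p = 0.0204 for the second one, on which M520 had 9.78 and 9.49 and BN had 8.54 and 8.12. Of the 46 HS livers, the high end lay above every inbred array.

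The ends also differed along the main axis of variation of the HS arrays, and this bears on every count below. The first principal component of the 46 arrays held 17.9% of the variance, and its score ran from -3.86 to 23.9 with a median of 15.1 in the high end, against -45.6 to 9.97 with a median of -22.1 in the low end. Only 1 of 12 high-end arrays and 11 of 12 low-end arrays scored below 0. Of the low end, 4 arrays (normal rats 16 and 39, intolerant rats 18 and 41) scored -34.7 or lower, while none of the other 42 HS arrays scored below -25.1. The interquartile range of each array's deviations from the probe set medians of the 46 was 0.291 to 0.328 in these 4. Its median over the 46 was 0.226, and normal rat 21 of the high end had 0.320. Over the 46 arrays this range correlated with Cd36 at -0.40 (Pearson). Whether array quality had a part in the component was not tested. Results are therefore given with and without these 4 arrays, and also with the arrays ranked by the second Cd36 probe set, settings added after the data were seen.

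The component went with the gap between the Cd36 probe sets more closely than with either one. Its correlation with Cd36 was 0.755 over 46 arrays (Pearson; Spearman 0.694; permutation p = 1e-05, the smallest that the permutations could give, for both; 0.662 without the 2 arrays farthest from the median Cd36). Over the 42 arrays that exclude the 4 it was 0.611 (Spearman 0.607), and within the 22 middle arrays it was 0.181 (Spearman 0.153, permutation p = 0.418 and 0.494). With the second probe set the component correlated at 0.378 over 46 arrays (Spearman 0.334), at 0.168 over 42 and at -0.584 in the middle 22. With the ranking minus the second probe set it correlated at 0.969 over 46 arrays (Spearman 0.952), at 0.959 over 42 and at 0.963 in the middle 22. After adjustment over these 12 relations the p-values of 0.969, 0.959 and 0.963 were each 2e-05. The probe sets themselves correlated at 0.881 over 46 arrays (Spearman 0.880), at 0.871 over 42 and at 0.667 in the middle 22. The gap had a median of -1.10 in the high end and -2.42 in the low end. Why it varied was not tested.

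**Figure D2:**
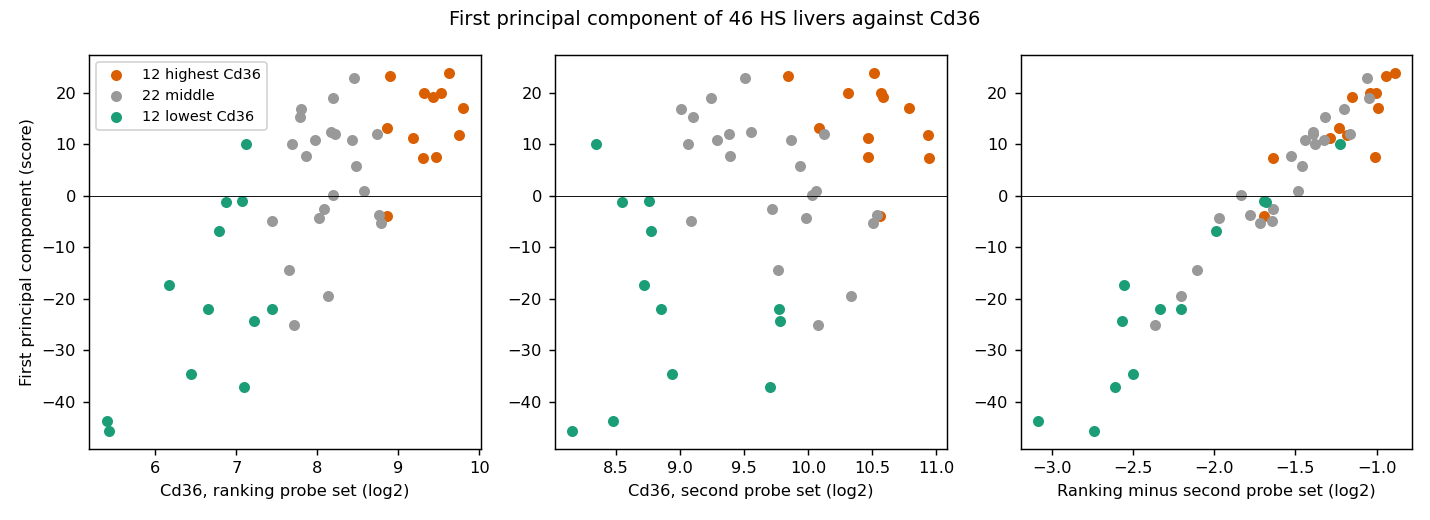
Score on the first principal component of the 46 HS livers (vertical axis) against the ranking Cd36 probe set, the second Cd36 probe set and the difference between them (horizontal axes, log2), with points coloured by end. The points form the tightest line in the right panel, where the correlation is 0.969, against 0.755 on the left and 0.378 in the middle.

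Between the ends, limma called 5052 of 31040 probe sets (16.3%) at an adjusted p under 0.05, with 2562 higher (8.25%) and 2490 lower (8.02%) in the high end, and 8887 (28.6%) had an unadjusted p under 0.05. Taking 1 probe set per gene, 2646 of 14216 genes (18.6%) were called, 1119 higher (7.87%) and 1527 lower (10.7%). These counts depend on the probe set taken: 913 of the called genes had 1310 other probe sets, of which 848 had the same sign. Of the 1310, 287 were called with the same sign and 77 with the opposite sign. Most differences were small: the median size among called genes was 0.28, 2360 were under 0.5, and 20 genes were higher and 8 lower by 1 or more. The groups of 12 did not overlap for 18 genes that were higher (0.127%) and 4 that were lower (0.0281%). Without the 4 arrays, 1564 probe sets (5.04%) were called, 951 higher (3.06%) and 613 lower (1.97%), and 367 genes were higher (2.58%) and 396 lower (2.79%). Ranked by the second probe set, 98 probe sets were called, 75 higher (0.242%) and 23 lower (0.0741%), with 54 genes higher (0.38%) and 11 lower (0.0774%). With the first component as a covariate, limma called 0, with the smallest adjusted p = 0.0746 for Plaat3, and 2672 probe sets (8.61%) had an unadjusted p under 0.05. The component was computed from these same probe sets and nearly separated the ends, so this fit had less power. The SE rose from 0.11 to 0.19 for Plaat3 and from 0.37 to 0.61 for Prlr. A count of 0 under the covariate, here and below, therefore does not show that differences were absent. With Cd36 as a number over the 42 arrays, 1370 probe sets rose (4.41%) and 897 fell (2.89%) with it. Of the called genes 75.8% correlated with the component at an absolute value over 0.5, against 22.6% of all genes. Of the genes called with all 24 arrays, 363 higher and 388 lower were called again without the 4, and 49 were called in the same direction in all 3 comparisons, 41 higher and 8 lower. These 3 comparisons share most arrays, and the 49 were picked after their values were seen.

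The largest rises and falls below are those among called genes with a mean of 6 or more in the brighter end. The largest change among them was in Prlr, the prolactin receptor, which in rat liver is more abundant in females. Its level ran from 7.65 to 11.05 with a median of 9.04 in the high end, against 5.29 to 8.47 with a median of 6.34 in the low end. Only the lowest high-end arrays and the highest low-end arrays overlapped. Prlr averaged 9.08 ± 0.995 in the high end and 6.73 ± 0.96 in the low end (SD, n = 12 each), a difference of 2.35 ± 0.37 (SE) or 5.10-fold (adjusted p = 0.000218). Its other 2 probe sets differed by 2.47 and 3.34, and on the one with 3.34 the ends did not overlap. The difference was 2.40 without the 4 arrays (adjusted p = 0.00236), 2.46 between the ends of the second probe set (adjusted p = 0.000894) and 2.58 ± 0.61 with the component as a covariate (adjusted p = 0.24).

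Of 13 measured genes that are more abundant in female than in male rat liver, 7 rose and 0 fell, with a median difference of 0.25 against -0.02 over all genes, of which 7.87% rose. In the 22 middle arrays 6 of the 13 had a positive slope on Cd36, with a median slope of -0.05. Sult2a6, a sulfotransferase of steroids and bile acids, ran from 11.03 to 13.24 (median 11.76) in the high end, against 9.92 to 11.71 (median 10.75) in the low end, a difference of 1.18 ± 0.23 (SE, adjusted p = 0.000947). Its relative Sult2a2 differed by 0.88 and the coregulator Trim24 by 1.08. The cytochrome P450 genes Cyp2a1 and Cyp2c7 differed by 0.40 and 0.25, and Ghr, the growth hormone receptor, by 0.18. Sult2a2 was dim, at 4.84 in the high end and 3.96 in the low end, and related sulfotransferase and P450 genes can share a probe set's signal. Without the 4 arrays, and also by the second probe set, 2 of the 13 were called, Prlr and Sult2a6.

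Of 13 genes more abundant in male rat liver, Sult1e1, the estrogen sulfotransferase, rose by 0.50 and Cyp2c11, the male-specific P450, fell by 0.21 (adjusted p = 0.045). Their median difference was 0.00, where 7.87% of all genes rose and 10.7% fell. Of 13 genes of growth hormone signalling, Jak2 (0.37) and Ghr were called higher and 0 lower, and neither was called without the 4 arrays.

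Plaat3, a phospholipase and acyltransferase that acts on membrane lipids, had the smallest p of all genes. It ran from 9.33 to 10.20 (median 9.74) in the high end, against 7.99 to 9.16 (median 8.66) in the low end, so the ends did not overlap. The difference was 1.15 ± 0.11 (SE, adjusted p = 6.15e-06), 1.10 without the 4 arrays, 1.01 by the second probe set and 1.16 ± 0.19 with the component as a covariate. In the 22 middle arrays its slope per unit of Cd36 was 0.06 ± 0.20 (SE, p = 0.772).

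Of 24 other measured genes of fatty acid uptake, binding and activation, 2 rose and 3 fell, near the 18.6% of all genes called, and the median difference was 0.02. Acsl5, an acyl-CoA synthetase of liver and gut, ran from 11.07 to 11.68 (median 11.39) in the high end, against 10.40 to 11.18 (median 10.92) in the low end, a difference of 0.49 ± 0.09 (SE, adjusted p = 0.000687). It was 0.50 without the 4 arrays and 0.50 by the second probe set, and was called in both. Fabp2, the intestinal fatty acid binding protein, differed by 0.45 at a low level (5.72 in the high end, 5.27 in the low end). The lipoprotein receptor Lrp1 fell by 0.46 and the fatty acid transport proteins Slc27a1 and Slc27a4 fell by 0.31 and 0.26. By the second probe set none of these 3 was called.

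Among 22 genes of fatty acid synthesis 3 rose and 0 fell, with a median difference of 0.12, where 7.87% of all genes rose and 10.7% fell. Me1, the malic enzyme that supplies NADPH, ran from 7.77 to 9.05 (median 8.69) in the high end, against 7.35 to 8.38 (median 7.81) in the low end, a difference of 0.74 ± 0.13 (SE, adjusted p = 0.000524). Elovl6, which lengthens saturated fatty acids, ran from 4.996 to 6.47 (median 5.53) in the high end, against 4.46 to 5.36 (median 4.77) in the low end, a difference of 0.83 ± 0.17 (SE, adjusted p = 0.00174). Thrsp, a regulator of lipogenesis, differed by 0.88 (adjusted p = 0.0245). Me1 and Elovl6 were called in all 3 comparisons, and Thrsp was called in neither of the added ones. Scd, a desaturase, averaged 10.69 in the high end and 9.58 in the low end (adjusted p = 0.165). Fasn, which encodes the enzyme that builds palmitate, averaged 8.72 in the high end and 8.44 in the low end (adjusted p = 0.528).

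Of 38 PPAR alpha targets and oxidation genes, 9 rose and 2 fell, with a median difference of 0.14, where 7.87% of all genes rose and 10.7% fell. The electron carrier enzyme Etfdh differed by 0.55, the thioesterase Acot12 by 0.54, the isomerase Eci2 by 0.50, the peroxisomal enzyme Hsd17b4 by 0.26 and the medium-chain dehydrogenase Acadm by 0.18. The members named here all rose, and the 2 that fell are not among them. Without the 4 arrays Etfdh and Hsd17b4 were still called, and by the second probe set 0 of 38 were. Of 30 lipid droplet genes, Mttp, which loads triglyceride onto lipoproteins, rose by 0.24 and the droplet enzyme Hsd17b13 by 0.24, while Abhd5, the lipase coactivator, fell by 0.30. None of these 3 was called in either added comparison. Of 20 cholesterol genes Hsd17b7 (0.56) rose, and of 11 LXR targets 0 were called, with the smallest p for Nr1h3, which encodes LXR alpha (-0.19, adjusted p = 0.0588).

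Of the 26 lists, oxidative phosphorylation held the most called members. Of 38 measured subunits of oxidative phosphorylation, 21 rose and 1 (Atp5f1d, -0.15) fell, with a median difference of 0.17, against 7.87% of all genes that rose. The largest was Uqcrc2, a core subunit of complex III, at 0.55. Without the 4 arrays 12 rose and 0 fell, and by the second probe set 2 rose, Atp5f1c of ATP synthase (0.31) and Sdhb of succinate dehydrogenase (0.27). The 4 succinate dehydrogenase genes Sdha, Sdhb, Sdhc and Sdhd differed by 0.38, 0.34, 0.26 and 0.35 between the ends. With the component as a covariate the median over the list was 0.09, and 0 were called. Of 20 cytosolic ribosomal protein genes 7 rose and 1 fell, with 2 rising without the 4 arrays and 0 called by the second probe set.

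The 49 genes called in all 3 comparisons included several that encode mitochondrial proteins. Idh3b and Idh3g, subunits of isocitrate dehydrogenase, differed by 0.47 and 0.28. Idh3b ran from 10.62 to 10.89 (median 10.74) in the high end, against 9.93 to 10.55 (median 10.27) in the low end, so the ends did not overlap. With the component as a covariate its difference was 0.20 ± 0.07 (SE), and those of Apoo and Prdx3 were 0.20 and 0.13. All 49 genes kept their sign under the covariate, 33 with an unadjusted p under 0.05 and 0 called. Apoo, a component of the inner membrane's cristae junctions, differed by 0.60, Dnajc19, of the import motor, by 0.30 and Prdx3, the mitochondrial peroxiredoxin, by 0.43. The mitochondrial ribosomal proteins Mrps9, Mrps22, Mrps28 and Mrps30 differed by 0.39, 0.40, 0.28 and 0.35, the elongation factor Gfm1 by 0.27, the RNA helicase Supv3l1 by 0.34 and the exonuclease Mgme1 by 0.25. Bbox1, which makes carnitine, differed by 0.60, Nudt7, a peroxisomal coenzyme A hydrolase, by 0.44 and Them7, a thioesterase family member, by 0.46. No enrichment test was run, so the share of mitochondrial genes among the 49 is not compared with other genes.

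**Figure D3:**
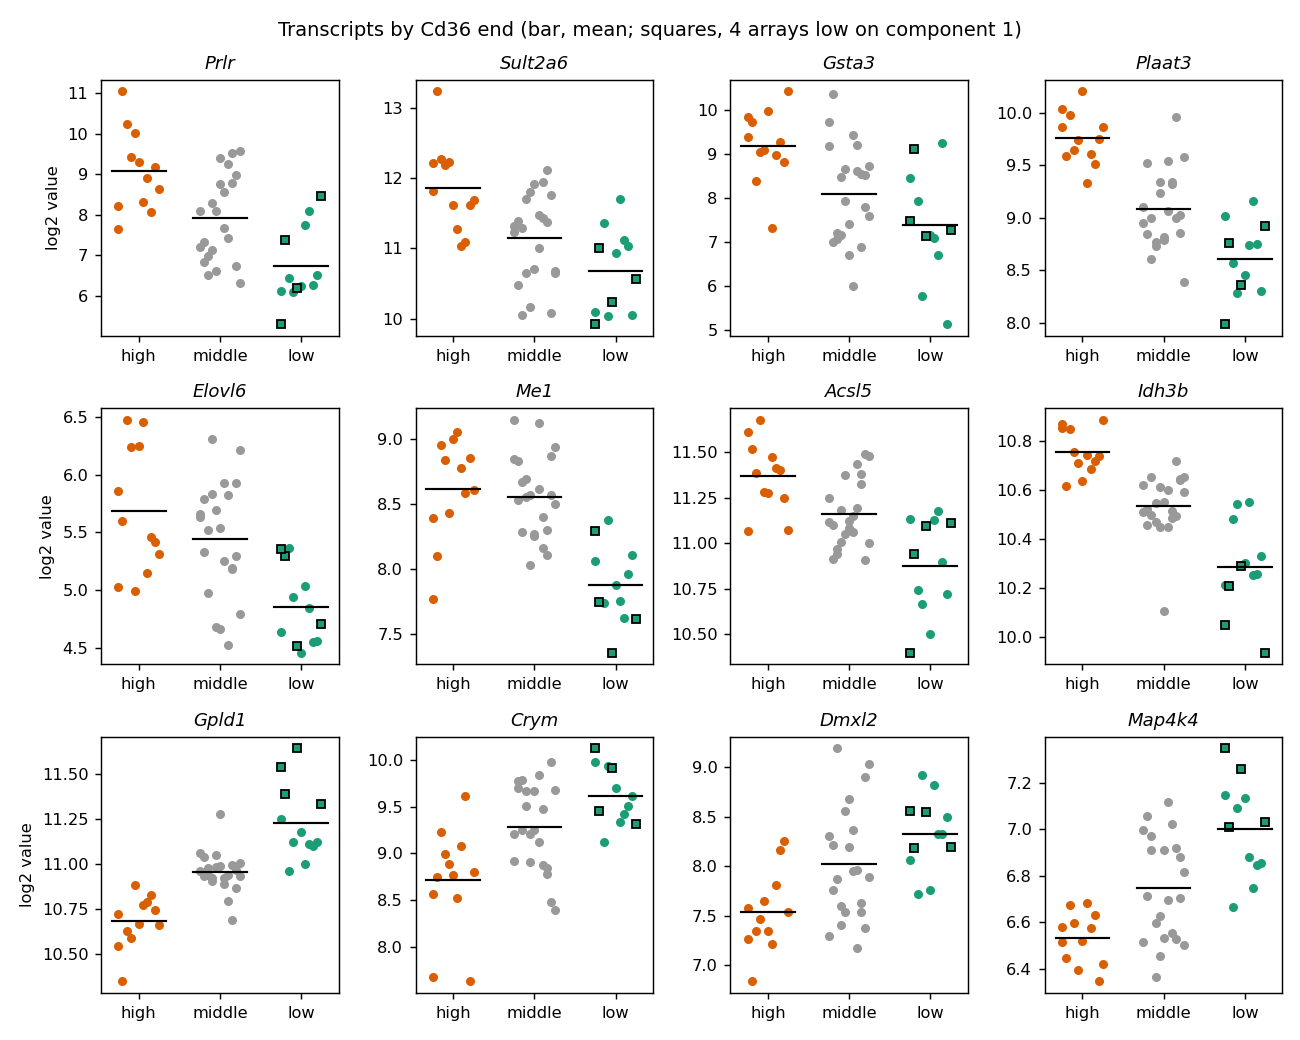
Levels (log2) of 12 transcripts in the 12 high-Cd36, 22 middle and 12 low-Cd36 livers, 1 point per array with the mean as a bar; black-edged squares are the 4 arrays lowest on the first component. The upper 8 genes are higher and the lower 4 are lower in the high end; Plaat3, Idh3b and Gpld1 show ends that do not overlap.

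Gsta3, a glutathione transferase, ran from 7.33 to 10.43 (median 9.19) in the high end, against 5.12 to 9.25 (median 7.22) in the low end, a difference of 1.82 ± 0.39 (SE, adjusted p = 0.00215). The ends overlapped, and the low end spread over more than the high end. It was called in all 3 comparisons, with 2.01 without the 4 arrays and 1.80 by the second probe set, but it was the 1 called member of 15 NRF2 targets. Aldh1a1, which oxidises retinal, ran from 11.84 to 12.64 (median 12.26) in the high end, against 10.85 to 12.28 (median 11.48) in the low end, a difference of 0.77 ± 0.15 (SE, adjusted p = 0.000947). Of 19 CAR and PXR targets it rose with the transporter Abcb1a (0.62), and 0 fell, where 7.87% of all genes rose and 10.7% fell. The alcohol dehydrogenase Adh4 differed by 1.51 and the acyl-CoA synthetase Acsm2 by 1.48, both called without the 4 arrays and not by the second probe set. Gsta3, Acsm2 and Sult2a6 belong to families of similar genes, so their signal could include relatives.

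Of the 15 largest rises, 5 went closely with the first component. Golph3, a Golgi protein, Slc35a3, a nucleotide sugar transporter, and Entr1, an endosomal protein, differed by 1.39, 1.24 and 1.24, and correlated with the component over 46 arrays at 0.97, 0.97 and 0.94. With the component as a covariate their differences were 0.04, 0.04 and 0.15. The component was computed from rows that include these 5 genes, so small adjusted differences follow from such correlations and are no separate result. Tank, a signalling adaptor, and Akr1c14, a steroid reductase, differed by 1.10 and 1.09, with correlations of 0.92 and 0.94 and covariate-adjusted differences of -0.13 and -0.16. Mug1, a protease inhibitor of rodent plasma, differed by 1.51, with -0.38 under the covariate, and was not called without the 4 arrays. The stress gene Gadd45a differed by 1.19, the endothelial gene Esm1 by 1.16 and Tmem14a by 1.60. Tmem14a ran from 4.22 to 8.46 (median 7.14) in the high end, against 3.70 to 7.54 (median 4.40) in the low end, and its slope in the middle arrays was -0.35. Most arrays lay near 1 or the other of these medians, so the mean difference reflects how many arrays were at each level. Among the inbred livers Tmem14a differed by strain (moderated F test, adjusted p = 7.48e-08). By limma it was not called without the 4 arrays (adjusted p = 0.114) or by the second probe set (adjusted p = 0.588). In all, 13 of the 15 were called without the 4 arrays, 4 by the second probe set (Prlr, Gsta3, Sult2a6 and Plaat3) and 0 with the covariate.

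The 2 largest falls, among genes with a mean of 6 or more in the brighter end, were in transporters. Slc22a8, an organic anion transporter, ran from 5.15 to 10.13 (median 8.90) in the high end, against 9.83 to 11.02 (median 10.19) in the low end, a difference of -1.61 ± 0.37 (SE, adjusted p = 0.00369), and its other probe set differed by -1.53. The high end spread over nearly the whole range while the low end stayed above 9.8. Without the 4 arrays it was -1.48 and missed the threshold (adjusted p = 0.0531). Slc6a6, the taurine transporter, ran from 6.09 to 8.68 (median 7.91) in the high end, against 8.22 to 10.09 (median 9.32) in the low end, a difference of -1.54 ± 0.27 (SE, adjusted p = 0.00052), with -1.29 on its other probe set and -1.52 without the 4 arrays.

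Of the other falls, Miox, which begins inositol breakdown, differed by -1.24, Inmt, a methyltransferase, by -0.96, and Hspb1, a small heat shock protein, by -1.22. Ccnd1, the G1 cyclin, differed by -1.01 and its other 2 probe sets by -0.85 and -0.88. Without the 4 arrays Hspb1 was called, and Miox, Inmt and Ccnd1 were not (adjusted p = 0.221, 0.169 and 0.109). Marveld1 differed by -1.09 on 1 probe set and by 0.02 on another. Tpcn2, an endolysosomal channel, differed by -1.05 (adjusted p = 0.0333, and adjusted p = 0.171 without the 4 arrays). Of the 15 largest falls, 7 were called without the 4 arrays and 3 by the second probe set (Slc22a8, Crym and Dmxl2).

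**Figure D4:**
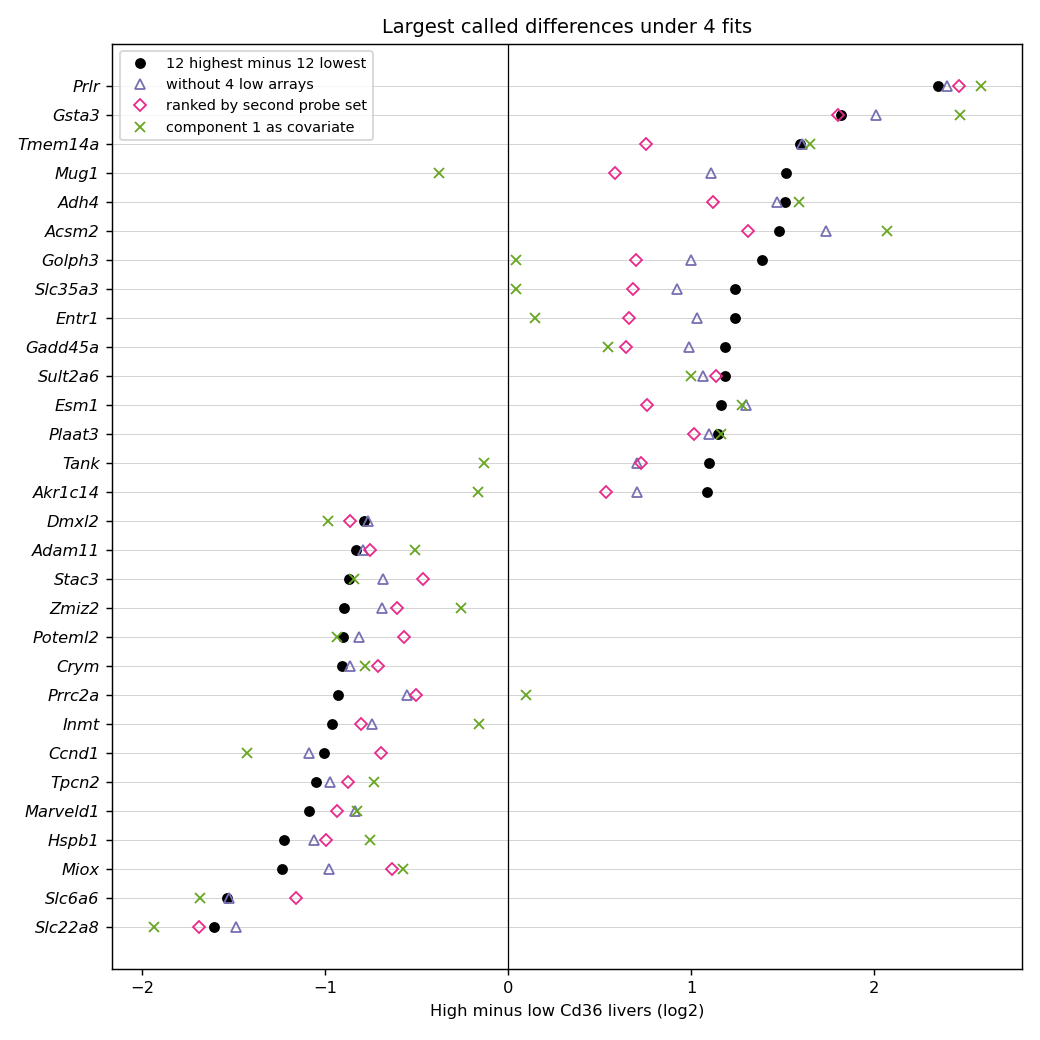
Difference between the high and low Cd36 ends (log2, horizontal axis) for the 15 genes with the largest called rise and the 15 with the largest called fall, in 4 fits: the 12 against 12 comparison, the same without 4 arrays, the ends by the second Cd36 probe set, and the first component as a covariate. Only genes with a mean of 6 or more in the brighter end entered. For Prlr the values lie between 2.35 and 2.58, while for Golph3 they run from 1.39 to 0.04 and for Mug1 from 1.51 to -0.38. Golph3 and Mug1 correlate with the component itself at 0.97 and 0.86.

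Of the 8 genes lower in all 3 comparisons, Gpld1 had the closest inverse relation to Cd36. Gpld1 encodes the phospholipase D that cleaves GPI anchors and circulates in plasma. It ran from 10.35 to 10.88 (median 10.69) in the high end, against 10.96 to 11.64 (median 11.15) in the low end, so the ends did not overlap, and the difference was -0.55 ± 0.07 (SE, adjusted p = 7.34e-05). It correlated with the component at -0.82, and with the component as a covariate the difference was -0.23 (adjusted p = 0.476). Crym, a thyroid hormone binding protein, differed by -0.91, Dmxl2, a regulator of the vacuolar proton pump, by -0.79, the kinase Map4k4 by -0.47, the GTPase Rhoc by -0.46, Tbc1d9 by -0.64 and the apolipoprotein Apon by -0.28. Nkx2-1 differed by -0.24 at a level of 3.21 in the high end and 3.45 in the low end, below the array medians.

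Of 15 genes of gluconeogenesis and fasting 0 rose and 2 fell, Pck1, the gluconeogenic carboxykinase, by 0.15 (adjusted p = 0.00979) and Igfbp4 by 0.21. Of 15 insulin signalling genes the regulatory subunit Pik3r1 rose by 0.79 and the kinases Akt2 and Pik3ca fell by 0.41 and 0.23. Of 20 genes of glycolysis and glycogen 4 rose, among them the enolase Eno1 (0.42) and the glycogen primer Gyg1 (0.36), and Gckr, which binds glucokinase, fell by 0.30. Over all genes 18.6% were called, 7.87% higher and 10.7% lower, and the called share of the insulin list was near that. By the second probe set 0 members of these 3 lists were called.

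Of 23 interferon response genes 1, Stat2, fell by 0.36 and 0 rose, with a median difference of -0.29 against -0.02 over all genes, and a median of -0.17 without the 4 arrays. In the middle 22 arrays 2 of the 23 had a positive slope on Cd36, with a median slope of -0.29. Neither the 18 antigen presentation genes, the 17 endoplasmic reticulum stress genes nor the 14 clock genes had a member called. Their smallest p-values were those of B2m (0.11, adjusted p = 0.0669), Calr (-0.22, adjusted p = 0.0924) and Cry2 (-0.26, adjusted p = 0.0506). In the same order, 5 of 18, 3 of 17 and 8 of 14 genes had a higher mean in the high end. Of 20 acute phase genes Crp (0.51) and Apcs (0.15) rose and Serpina3n (-0.19) fell, where 7.87% of all genes rose and 10.7% fell. Of these 20, 7 had a higher mean in the high end, and the median difference was -0.06. Of 11 heat shock genes the mitochondrial chaperones Hspd1 (0.20) and Hspe1 (0.19) and Dnaja1 (0.19) rose and Hspb1 fell, and without the 4 arrays Hspb1 alone of these was called. Of 15 apolipoproteins Apoa4 (0.35) rose and Apon fell, and of 18 bile acid genes the uptake transporters Slco1a1 (0.36) and Slc10a1 (0.20) rose and the receptor Fgfr4 (-0.28) fell. Of 15 glucocorticoid targets Pck1 alone was called, and of 19 cell cycle genes Pcna (0.17) rose and Ccnd1 fell. Only 3 of the 19 cell cycle genes had a higher mean in the high end, with a median difference of -0.08.

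**Figure D5:**
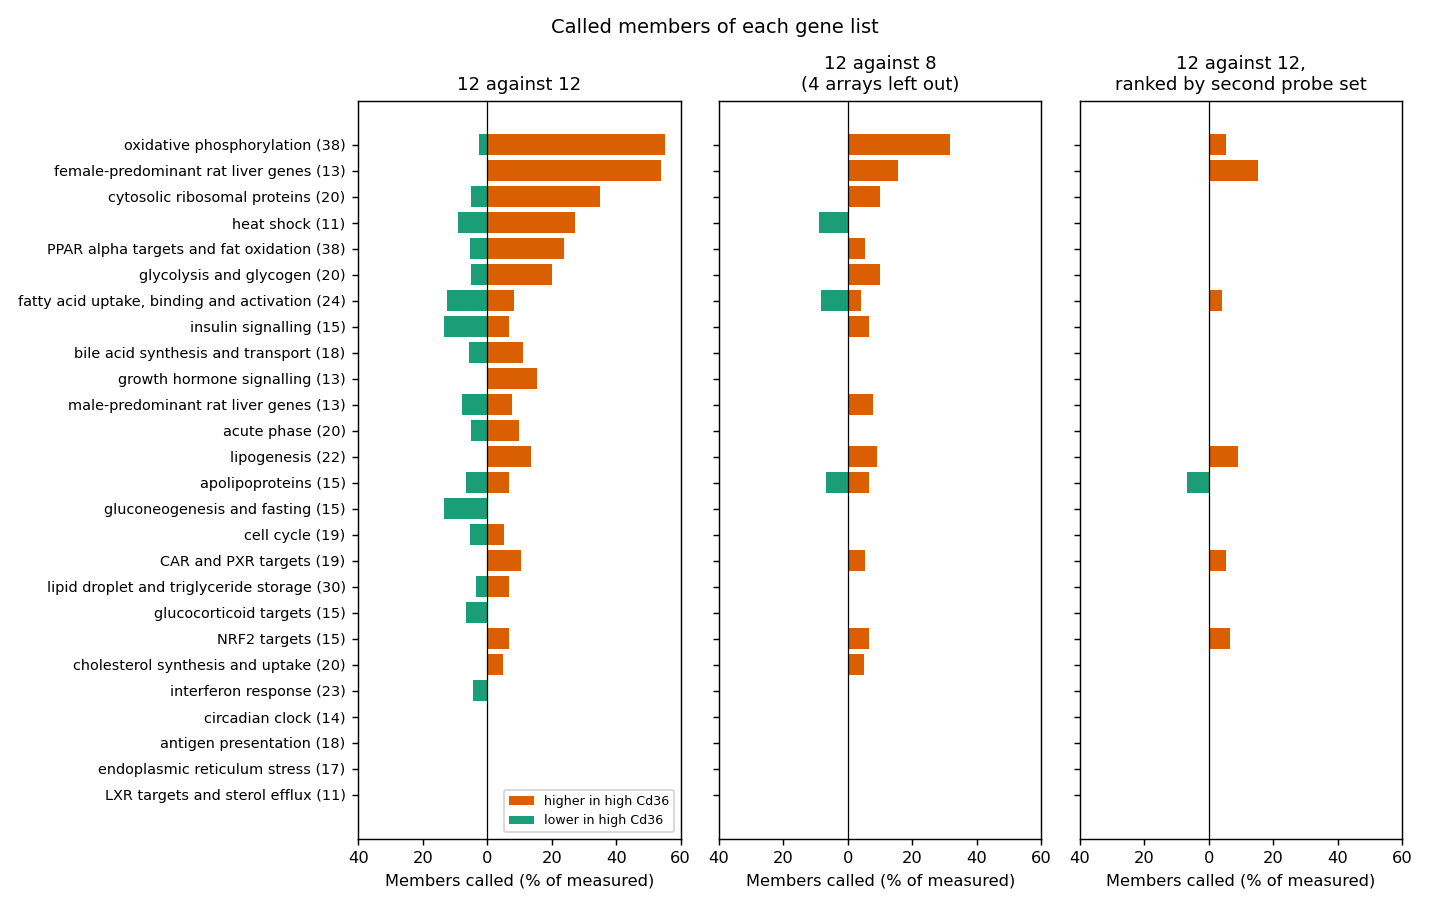
Share of the measured members of each of 26 gene lists called higher (right of 0) or lower (left of 0) in the high-Cd36 end, in percent, for the 12 against 12 comparison, the same without 4 low-end arrays and the ends by the second Cd36 probe set; the number measured follows each name. Oxidative phosphorylation had 21 of 38 called higher, 12 without the 4 arrays and 2 by the second probe set.

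The summed level of 11 hepatocyte markers ran from 17.2 to 17.3 in both ends, and Hnf4a, a hepatocyte transcription factor, was the 1 called (-0.33). Of 14 endothelial markers Fcgr2b (0.54) and Lyve1 (0.31) rose and Vwf (-0.34), Egfl7 (-0.21) and Pecam1 (-0.32) fell, with summed levels of 11.7 to 12.2 in the high end, against 11.3 to 12.3 in the low end. In the 22 middle arrays 0 of the 14 endothelial markers had a positive slope. Of 14 Kupffer cell markers Mrc1 (0.44) was called higher and 0 lower, with sums of 14.7 to 14.9 in the high end, against 14.6 to 14.96 in the low end. Only 4 of these 14 had a higher mean in the high end. Their median difference was -0.11, against -0.02 over all genes. Of 18 stellate and matrix markers Hgf (0.54) and Rgs5 (0.38) rose and Pdgfrb, Col1a1, Ecm1 and Des fell by 0.43, 0.47, 0.33 and 0.21. Over all genes 7.87% rose and 10.7% fell. Of 14 T and NK cell markers, 11 of them below the array medians, Klrd1 (0.43) rose. No marker of bile duct, B cells, neutrophils, erythroid cells, platelets, fat, pancreas or muscle was called. Their sums overlapped between the ends, including that of 8 pancreatic acinar markers, at 9.07 to 10.8 (median 10.01) in the high end, against 9.53 to 10.95 (median 10.6) in the low end, and that of 5 platelet markers, with medians of 9.04 in the high end and 9.26 in the low end. Their part in the results was not tested. With the endothelial and Kupffer sums as covariates, 3066 probe sets were called.

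By correlation with Cd36 over the 46 arrays, the genes most like it were Plbd1 (0.82), Cct2 (0.81), Pdha1 (0.81), Bbox1 (0.80), Idh3b (0.80), Tmed2 (0.79), Pxmp2 (0.79), Prdx3 (0.79), Atp1b3 (0.79) and Atp5f1c (0.79). Pdha1 is the catalytic subunit gene of pyruvate dehydrogenase and Cct2 belongs to the cytosolic chaperonin. The most opposed were Gpld1 (-0.86), Camta2 (-0.82), Gpatch8 (-0.77), Tmem208 (-0.76) and Dpp9 (-0.75). These values describe arrays that also share the first component, with which the same 10 genes correlated at 0.70 to 0.89. In the middle 22 arrays the correlations of the 10 with Cd36 were 0.17 to 0.42. Other probe sets of these genes differed in size between the ends: 1.18 against 0.45 for Pdha1, 1.17 against 0.60 for Bbox1, 1.52 against 0.32 for Tmed2 and 0.14 against 0.73 for Plbd1. For Gpatch8 the other probe sets differed by 0.06 and -0.03, against -0.36, and neither was called lower.

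The 22 middle arrays, which the ends by the ranking probe set did not use, gave few calls. On Cd36 as a number, limma called 1 of 31040 probe sets (0.00322%), for Ecpas, a proteasome adaptor, with a slope of 0.54 and a difference of -0.28 between the ends, while 956 (3.08%) had an unadjusted p under 0.05. Of the 1119 genes called higher between the ends 901 (80.5%) had a positive slope, and of the 1527 called lower 1140 (74.7%) had a negative one, against 49.7% positive over all genes. Genes vary together across arrays, so these shares carry no test. Of the 49 genes called in all 3 comparisons 48 had the same sign in the middle arrays, with Apon the exception, and 12 had an unadjusted p under 0.05. The ends by the second probe set shared 9 of 12 arrays with the main ends on each side, and their other arrays were middle arrays. The 49, which include Prlr, Gsta3 and Sult2a6, were thus partly picked on middle arrays, and their signs and slopes there are no separate support. The slope was 0.91 ± 0.54 for Prlr, 1.09 ± 0.55 for Gsta3 and 0.65 ± 0.31 for Sult2a6 (SE, p = 0.101, 0.0592 and 0.0435).

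In F344, arrays of 1 inbred strain also differed in Cd36. Its array 1 had Cd36 of 7.73 and array 2 of 5.83, while the second probe set had 9.19 and 8.50. In BUF, array 1 had 6.62 and array 2 of 5.53, while the second probe set had 9.11 and 9.01. Of the genes higher in the high-Cd36 HS end, 84.6% were higher on array 1 than on array 2 of F344 and 87.8% in BUF, against 42.8% and 45.5% of all genes. Of those lower, 88.8% and 89.8% were lower on array 1. These are differences between 2 rats of an inbred strain, without replication. F344 and BUF are the strains whose arrays differed by over 1 on the ranking probe set, and the other strains were not examined in this way. The BUF pair differed little on the second probe set, so it differed mainly in the gap between the Cd36 probe sets. That gap correlated with the first component at 0.969 over the 46 HS arrays. Whether the shares go with Cd36 or with the component was not tested. Prlr differed by 0.63 in F344 and 0.56 in BUF, Golph3 by 1.12 and 1.57, but Plaat3 by -0.18 and -0.0031.

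On rat chromosome 4, 27 annotated genes start within 2 Mb of Cd36, and 5 of them were measured. Of these 5, 3 were called, where 18.6% of all genes were, and a share of so few genes carries no test. Cd36l1 also starts in this window but is not among the 5, because the second Cd36 probe set names it together with Cd36 and was left out. Gnat3, a G protein subunit of taste cells, differed by 0.55 (adjusted p = 0.0197), Gnai1, an inhibitory G protein subunit, by 0.53 (adjusted p = 0.0364) and Hgf, the hepatocyte growth factor, by 0.54 (adjusted p = 0.00424). Sema3c, a semaphorin, differed by 0.43 (adjusted p = 0.344) and Cacna2d1, a calcium channel subunit, by -0.05. All were at low levels, with means of 4.21 to 5.93 in the high end, against 3.68 to 5.38 in the low end. In the middle arrays the slope of Gnat3 was 0.38 (p = 0.00821), that of Gnai1 0.01 (p = 0.945) and that of Hgf 0.03 (p = 0.884). With the component as a covariate the difference was 0.81 for Gnat3, -0.35 for Gnai1 and -0.0093 for Hgf.

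No gene's difference between the ends was called as differing by glucose label. The limma interaction of end and label called 0 of 31040 probe sets, with 1093 (3.52%) at an unadjusted p under 0.05. Within the intolerant rats alone (8 against 5) 120 probe sets were called (0.387%), and within the normal rats alone (4 against 7) 525 (1.69%). Prlr differed by 2.78 in the intolerant and 1.59 in the normal rats, and Plaat3 by 1.28 in the intolerant and 0.97 in the normal rats, with interactions that were not called.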

How the data were processed

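Liver RNA was amplified over 2 cycles and hybridised to Affymetrix expression arrays, 1 per rat. The values analysed are the log2 levels deposited by the authors for 58 arrays and 31042 probe sets. Partek is named in the submitters' processing notes; how the arrays were normalised, and their scan dates and cages, are not given here, so no batch was tested. The labels do not say that rats came from separate litters, so p-values measure the spread between these rats. Of the probe sets 20826 had 1 gene symbol, 436 several and 9780 none; genes with several probe sets are given by the one with the highest mean.

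The 2 Cd36 probe sets were left out and the ends compared over 31040 probe sets with limma 3.58.1 in R 4.3.3 (lmFit, eBayes; Benjamini-Hochberg, threshold 0.05), after tests on simulated data. Named genes include the 15 largest called rises and falls. These were taken among genes with a mean of 6 or more in the brighter end and medians on the matching sides, so dimmer genes were left out. The others are the 10 most positively and 5 most negatively correlated with Cd36 over 46 arrays, genes within 2 Mb of Cd36, and up to 4 called members of smallest p per list. Genes of the 49, marker genes, further list members and Scd and Fasn were named after their values were seen. The members and lists were chosen with earlier results of these data known. Alternatives are given at the end; leaving out 4 arrays, the second Cd36 ranking and the first component were among those examined.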

Additional observations from a re-analysis of the deposited data

How the results depend on the processing

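Between the ends 5052 probe sets were called. In other settings the count, not all of it among the 5052, was 0 with the first component as a covariate, 98 by the second Cd36 probe set, 120 within intolerant and 525 within normal rats (both with fewer arrays), 1564 without the 4 arrays, 2267 with Cd36 as a number without them, 3066 with endothelial and Kupffer sums as covariates, and 2822 with 1 probe set per gene, which tests fewer rows. Other causes were not tested. Leaving out each array gave 4156 (without normal rat 39) to 5681 (without intolerant rat 13). The remaining alternatives stayed within 1.5 times. The middle-array count of 1 was 0 with glucose group as a covariate and 0 after quantile normalisation. With the component as a covariate 1373 of the 5052 called probe sets turned sign, in a fit with less power because the component nearly separates the ends. Among the single genes followed across settings, the difference turned sign for Mug1 (-0.38), Tank (-0.13), Akr1c14 (-0.16), Prrc2a (0.10), Crp (-0.41), Slco1a1 (-0.090), Slc10a1 (-0.057), Rpl7 (-0.0082), Rpl14 (-0.077), Igfbp4 (0.039), Stat2 (0.013), Abhd5 (0.11), Hsd17b13 (-0.10), Cyp2c7 (-0.087), Eci2 (-0.071), Gnai1 (-0.35), Sdha (-0.017) and Hgf (-0.0093). No paired analysis was possible because each rat gave 1 array and rat numbers pair no rats. Ranking by another probe set with Cd36 as its single symbol was not run, because the files hold 1 such probe set. The 4 arrays, the second ranking and the inbred quantile check were added after seeing the data. Array number limits the precision.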
